A study of Arabidopsis thaliana with 16 samples.

Results

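CHLI2, PORB and HEMA2 are nuclear genes of tetrapyrrole synthesis in Arabidopsis thaliana, and each was measured here by 1 probe set annotated to that gene alone, 3 of the 13356 genes that the 22746 probe sets of the array measured in this way. The members were taken by gene symbol and not by their values, although they were proposed with earlier results of these data known. Steady-state RNA of whole seedlings was measured on 16 Affymetrix arrays, in the phyA-211 null mutant, which lacks the far-red photoreceptor phytochrome A, and in the Col-0 wild type (WT) from which it derives. The groups were phyA and WT in strong shade (3 arrays each), phyA and WT in shade (3 arrays each), and phyA and WT in white light (2 arrays each). All seedlings grew for 5 days in continuous white light at the start and then spent 24 h in the test light. Strong shade came from LEDs and held 3 parts of red to 30 of far-red light, with blue at 3.5 (all in µmol per square metre and second), which is a red to far-red ratio (R:FR) of 0.1. Shade, also from LEDs, held 13 of red to 21 of far-red and the same blue. It is labelled with an R:FR of 0.7, which the stated red and far-red do not give exactly. White light was given at about 45 in the same unit, so both shades differ from it in lamp and brightness as well as in R:FR. The mutant is represented by 1 allele in 1 background, and the labels leave it unsaid whether replicate arrays hold RNA of separately grown seedlings. The spread behind the p-values is therefore that of these arrays and could be technical.

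Plants make chlorophyll, heme and the phytochrome chromophore from the same tetrapyrrole pathway in the plastid, whose enzymes are encoded in the nucleus. The pathway starts with glutamyl-tRNA reductase, the committed step, which HEMA genes encode. HEMA1 is the light-induced, photosynthetic form, while HEMA2 is known from roots and other tissue that is not green. The common trunk leads to protoporphyrin IX, into which magnesium chelatase inserts magnesium at the branch towards chlorophyll; CHLI2 encodes a second form of its ATPase subunit I, beside the main form CHLI1. Further along that branch PORB encodes a protochlorophyllide oxidoreductase, an enzyme that itself needs light to act and that stays present in green seedlings.

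The deposited values were probe set intensities between 2.33 and 6167, used here as log2 intensity, and array medians lay between 13.5 and 15.1 on the linear scale. Arrays of one group correlated at r = 0.979 to 0.995 over probe sets, which are not independent replicates. The third arrays of the phyA shade and phyA strong shade groups stood apart from their labels. For array 3 of phyA shade the mean r was 0.986 with its group mates but 0.993 with phyA strong shade 1 and 2. For array 3 of phyA strong shade it was 0.981 with its group mates but 0.991 with phyA shade 1 and 2. An exchange of the labels of these 2 arrays is possible and was not tested; they are used as labelled, and results on these groups are also given without them. The 5 green tissue markers had group means of 3.93 to 12.1 log2 units and the root marker PYK10 of 10.01 to 11.3. The root markers EXPA7 and EXPA18 were dim in the LED groups, with group means down to 2.89 and 2.58, and no group could be checked for loss of PHYA because no probe set is annotated to that gene alone.

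CHLI2 gave the highest signal in white light and was lower in every LED group, and lower in phyA than in WT under both shades. Its log2 intensity in phyA was 4.59, 4.79 and 4.60 in strong shade and 4.72, 4.75 and 4.46 in shade, against 8.34 and 8.06 in white light. In WT it was 5.81, 5.76 and 5.92 in strong shade and 5.67, 5.93 and 6.09 in shade, against 8.53 and 8.46 in white light. The white-light arrays lay clear of the LED arrays in both genotypes, and within either shade no phyA array reached a WT array. How many of all probe sets separate in these ways is not given here, so the separation is a description only. Over the 6 group means CHLI2 spanned 3.85 log2 units, which placed it at percentile 99.2 of all probe sets by that span.

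Differences were tested with limma on all 16 arrays, and a probe set was called at an adjusted p under 0.05 over all 22746 probe sets. CHLI2 fell by 3.56 ± 0.142 (SE) on the log2 scale in phyA shade against phyA white light, an 11.8-fold lower level (limma adjusted p = 8.59e-11). In phyA strong shade it fell by 3.54 ± 0.142, an 11.6-fold lower level (limma adjusted p = 9.71e-11). In WT the differences were -2.60 ± 0.142 in shade, 6.05-fold lower (limma adjusted p = 2.25e-09), and -2.66 ± 0.142 in strong shade, 6.34-fold lower (limma adjusted p = 1.6e-09). Shade and strong shade of a genotype are set against the same white-light arrays. These 4 calls were kept under every alternative setting and without any single array, and the phyA differences were -3.46 and -3.51 without the third arrays. Against white light, limma called 20.1% of all probe sets lower in phyA shade and 20.3% in phyA strong shade. In WT it called 19.6% lower in shade and 21.2% in strong shade. In a sample of whole seedlings, less RNA per cell and fewer cells that make it cannot be told apart.

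**Figure D1:**
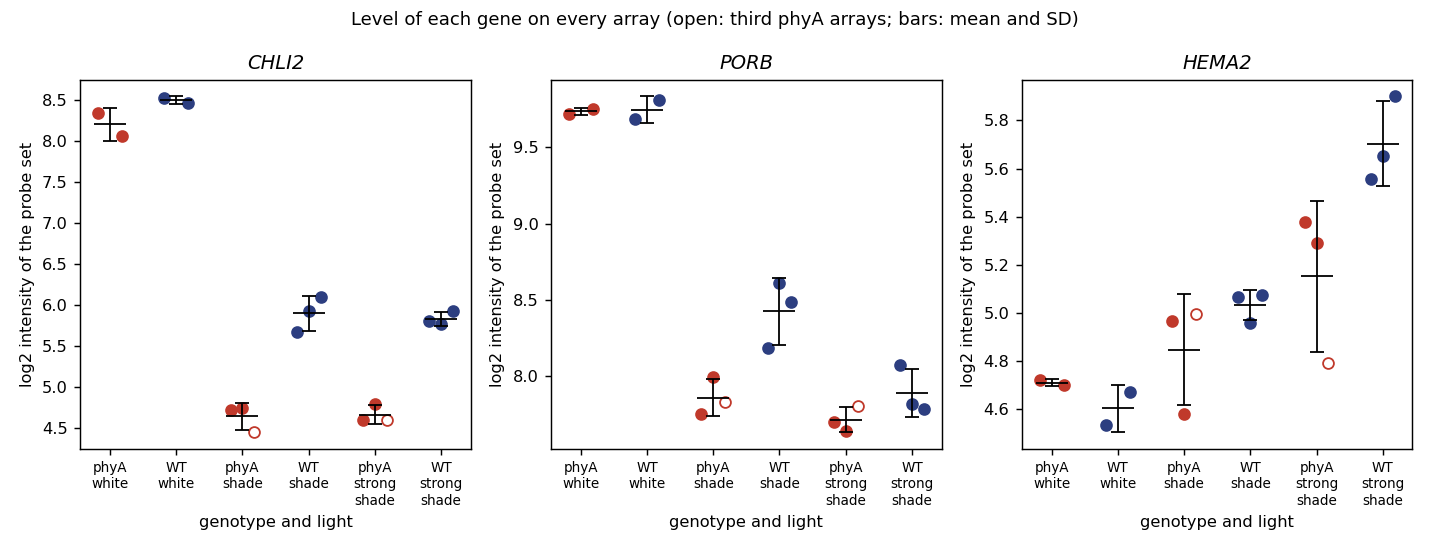
Log2 intensity (vertical axes, a separate scale for each gene) of CHLI2, PORB and HEMA2 on each of the 16 arrays, by light and genotype (horizontal axes), with phyA in red and WT in blue. Black bars give the mean and SD of a group (n = 2 in white light, n = 3 otherwise), and open circles are the third phyA arrays; CHLI2 lies between 8.06 and 8.53 in white light and between 4.46 and 6.09 in the LED groups.

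The genotypes differed in CHLI2 under both shades. In shade the mean was 4.64 ± 0.162 in phyA and 5.90 ± 0.215 in WT (SD, n = 3 each), a difference of -1.25 ± 0.127 (SE), or 2.39-fold lower in phyA (limma adjusted p = 1.55e-05). In strong shade the mean was 4.66 ± 0.113 in phyA and 5.83 ± 0.0817 in WT (SD, n = 3 each), a difference of -1.17 ± 0.127 (SE; limma adjusted p = 1.16e-05). Both were kept without the third phyA arrays, at -1.16 and -1.14. With all arrays, 3.59% of all probe sets were called lower in phyA in shade and 6.26% in strong shade. In white light the phyA arrays were also below the WT arrays, but the difference of -0.29 ± 0.156 missed the threshold (limma adjusted p = 0.788; 95% interval -0.63 to 0.04). Of all probe sets, 25.1% had phyA arrays wholly below WT arrays in white light, a comparison of 2 arrays with 2.

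Whether the light response itself differed between genotypes was tested by the difference of the differences. For CHLI2 the response in phyA minus that in WT was -0.96 ± 0.201 in shade (limma adjusted p = 0.0298; 95% interval -1.39 to -0.53) and -0.87 ± 0.201 in strong shade (limma adjusted p = 0.0227; 95% interval -1.30 to -0.44). CHLI2 was the only one of the 3 genes called in these tests, which called 1.05% of all probe sets in shade and 3.66% in strong shade. The shade call ended without WT white array 1 or 2, phyA white array 1, WT shade array 2 or 3 or phyA shade array 3, with adjusted p up to 0.187, while the difference stayed between -1.10 and -0.82. It also ended with the replicate number as a block (0.0637) and with only the groups compared in the model (0.0751). The strong shade call ended without WT white array 1 or 2, phyA white array 1, WT strong shade array 3 or phyA strong shade array 1, with adjusted p up to 0.137 and differences between -1.01 and -0.73. Without the third phyA arrays the differences were -0.87 (limma adjusted p = 0.0431) and -0.84 (limma adjusted p = 0.0229), where 1.61% and 5.43% of all probe sets were called.

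PORB was lower in every LED group than in white light, and lower in phyA than in WT in shade. Its log2 intensity in phyA was 7.70, 7.64 and 7.80 in strong shade and 7.75, 7.99 and 7.83 in shade, against 9.72 and 9.75 in white light. In WT it was 8.07, 7.81 and 7.78 in strong shade and 8.18, 8.61 and 8.48 in shade, against 9.68 and 9.81 in white light. The WT shade arrays were the highest of the LED arrays, and the other 3 LED groups overlapped one another. From WT shade to WT strong shade, 11.4% of all probe sets had non-overlapping arrays on the lower side. That share is not given here for the phyA groups against WT shade, so the separation is a description only. PORB fell in phyA, with log2 differences from phyA white light of -1.88 ± 0.136 in shade (3.67-fold lower; limma adjusted p = 2.33e-08) and -2.02 ± 0.136 in strong shade (4.06-fold lower; limma adjusted p = 1.04e-08). It also fell in WT, with differences of -1.32 ± 0.136 in shade (2.50-fold lower; limma adjusted p = 1.47e-06) and -1.86 ± 0.136 in strong shade (3.62-fold lower; limma adjusted p = 4.07e-08). The 4 calls held under every alternative and without any single array, with phyA differences of -1.86 and -2.06 without the third arrays. The shares of all probe sets called lower were 20.1% in phyA shade, 20.3% in phyA strong shade, 19.6% in WT shade and 21.2% in WT strong shade.

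Between genotypes PORB was lower in phyA in shade, where it averaged 7.86 ± 0.122 in phyA and 8.42 ± 0.218 in WT (SD, n = 3 each), a difference of -0.57 ± 0.122 (SE; limma adjusted p = 0.011). It was -0.55 without the third phyA arrays (limma adjusted p = 0.0291). This call ended without WT shade array 2 or phyA shade array 1 (adjusted p up to 0.0723), and with only the groups compared in the model (0.0705). With all arrays, 3.59% of all probe sets were called lower in phyA in shade. In strong shade the means were 7.71 ± 0.0802 in phyA and 7.89 ± 0.157 in WT (SD, n = 3 each), and the difference of -0.17 ± 0.122 missed the threshold (limma adjusted p = 0.451; 95% interval -0.43 to 0.09). In white light the difference was -0.01 ± 0.149, with a 95% interval from -0.33 to 0.31 (limma adjusted p = 0.998). The response of PORB in phyA minus that in WT was -0.56 ± 0.193 in shade (limma adjusted p = 0.261) and -0.16 ± 0.193 in strong shade (limma adjusted p = 0.769), neither called.

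HEMA2 moved opposite to CHLI2 and PORB: its group means were lowest in white light and highest in WT strong shade. Its log2 intensity in phyA was 5.38, 5.29 and 4.79 in strong shade and 4.97, 4.58 and 4.99 in shade, against 4.72 and 4.70 in white light. In WT it was 5.56, 5.65 and 5.90 in strong shade and 5.07, 4.96 and 5.07 in shade, against 4.53 and 4.67 in white light. The WT arrays of the 3 lights did not overlap, whereas the phyA shade arrays spread around the phyA white-light arrays. From WT shade to WT strong shade, 11% of all probe sets had non-overlapping arrays on the higher side. For the steps from white light that share is not given here. The third phyA strong shade array, at 4.79, lay within the span of the phyA shade arrays and below the other phyA strong shade arrays.

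HEMA2 rose by 1.10 ± 0.17 in WT strong shade against WT white light, a 2.14-fold higher level (limma adjusted p = 7.41e-05), a call kept under every alternative and without any single array. In phyA strong shade it was higher by 0.44 ± 0.17, or 1.36-fold (limma adjusted p = 0.0479), and by 0.62 without the third arrays (limma adjusted p = 0.00244). With all arrays that call was close to the threshold: it ended without any one of 12 of the arrays, among them both phyA white-light arrays and phyA strong shade arrays 1 and 2 (adjusted p up to 0.175). It also ended with cyclic loess scaling (0.111). Against white light, limma called 18% of all probe sets higher in WT strong shade and 21.7% in phyA strong shade. In WT shade HEMA2 stood at 0.43 ± 0.17 against white light and missed the threshold (limma adjusted p = 0.0616), passing it with median centring (0.042) and without the third phyA arrays (0.0179). In phyA shade it stood at 0.14 ± 0.17 (limma adjusted p = 0.58; 95% interval -0.23 to 0.50).

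In strong shade HEMA2 averaged 5.15 ± 0.314 in phyA and 5.70 ± 0.177 in WT (SD, n = 3 each), a difference of -0.55 ± 0.152 (SE; limma adjusted p = 0.0268). It was called with all arrays, and missed the threshold without WT strong shade array 2 or 3 (adjusted p up to 0.131), without phyA strong shade array 3, with only the groups compared in the model (0.106), and without the third phyA arrays of both shades, where it was -0.37 (limma adjusted p = 0.0888). With all arrays, 6.26% of all probe sets were called lower in phyA in strong shade. In shade the genotypes differed by -0.18 ± 0.152 (limma adjusted p = 0.641; 95% interval -0.51 to 0.14) and in white light by 0.11 ± 0.186 (limma adjusted p = 0.971; 95% interval -0.29 to 0.50). The HEMA2 response in phyA minus that in WT was -0.29 ± 0.241 in shade (limma adjusted p = 0.754) and -0.66 ± 0.241 in strong shade (limma adjusted p = 0.177), neither called.

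**Figure D2:**
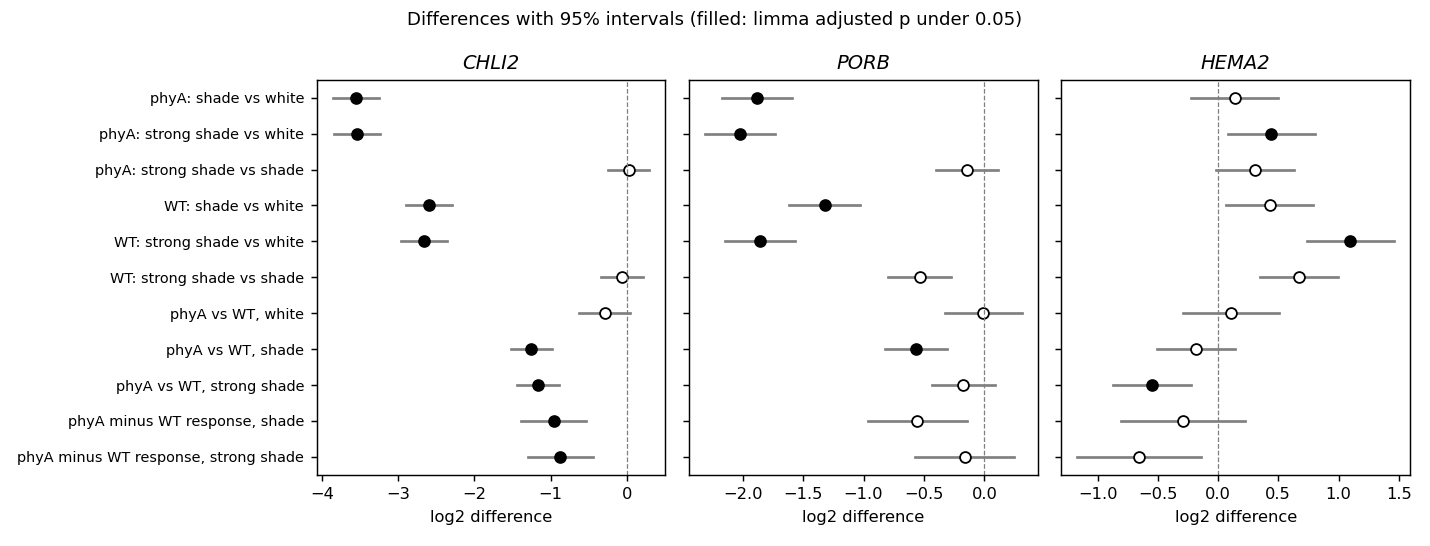
Log2 differences (horizontal axes, a separate scale for each gene) of CHLI2, PORB and HEMA2 in 11 of the comparisons (rows), with 95% intervals that are not adjusted for the number of probe sets. Filled circles passed a limma adjusted p of 0.05 over all probe sets; CHLI2 and PORB lie left of 0 in the 4 comparisons with white light, where HEMA2 lies right of 0 and is called in strong shade.

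The step between the LED lights compared an R:FR of 0.1 with one of 0.7, with dimmer red and brighter far-red light. None of the 3 genes was called with all 16 arrays by limma in either genotype, while 2 of them in WT and 0 in phyA had an unadjusted p under 0.05, as had 13.8% of all probe sets in WT and 3.75% in phyA. In WT, HEMA2 was 0.67 ± 0.152 higher in strong shade than in shade (limma adjusted p = 0.0605) and PORB stood at -0.54 ± 0.122 (limma adjusted p = 0.0617), with no overlap of arrays for either. Over all probe sets, 0.659% were called in this comparison, and 11% had non-overlapping arrays on the higher and 11.4% on the lower side. Without the third phyA arrays, which leaves the WT arrays as they were, the limma adjusted p was 0.00368 for HEMA2 and 0.0188 for PORB at the same differences. The SE was then 0.12 for HEMA2 and 0.125 for PORB, against 0.152 and 0.122 with all arrays, and 6.25% of all probe sets were called. CHLI2 stood at -0.07 ± 0.127 in WT (95% interval -0.34 to 0.20) and at 0.02 ± 0.127 in phyA (95% interval -0.25 to 0.29).

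In phyA the step from shade to strong shade gave 0.31 ± 0.152 for HEMA2 and -0.14 ± 0.122 for PORB (limma adjusted p = 0.998 for each), and 0% of all probe sets were called, with 852 at an unadjusted p under 0.05. Without the third phyA arrays HEMA2 rose by 0.56 (limma adjusted p = 0.0481), while PORB stood at -0.20 (limma adjusted p = 0.578), and 3.84% of all probe sets were called. With any single array left out, 0% were called in this comparison, so its calls rest on leaving out both of those arrays. The difference between genotypes in this step was -0.36 ± 0.215 for HEMA2, 0.39 ± 0.172 for PORB and 0.09 ± 0.18 for CHLI2. None of the 3 was called by limma, 1 had an unadjusted p under 0.05, and 0% of all probe sets were called, with 1631 at an unadjusted p under 0.05.

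The order of levels over the groups followed from these differences. For CHLI2 the white-light groups came highest, then both WT LED groups, then both phyA LED groups, and the tests within each of these pairs missed the threshold. For PORB the white-light groups were followed by WT shade and then by WT strong shade, phyA shade and phyA strong shade, whose ranges overlapped. For HEMA2 the order from the highest was WT strong shade, phyA strong shade, WT shade, phyA shade, phyA white light and WT white light, and the middle groups of that order overlapped. By the span of its group means, PORB (2.03 log2 units) lay at percentile 93.1 of all probe sets and HEMA2 (1.10 log2 units) at percentile 77.2.

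The rest of the pathway was read from a list of 49 genes of synthesis and turnover, of which 14 had a probe set annotated to that gene alone, the 3 members included. HEMA1, CHLI1, PORA and PORC, the close relatives of the members, were among the genes not analysed here, as was the whole heme and bilin branch. Under shade, 8 of the 14 were lower in phyA than in phyA white light and 0 were higher. In that comparison limma called 40.8% of all probe sets, 20.1% lower and 20.7% higher. In WT shade 8 of 14 were lower and 0 higher, where 36.4% of all probe sets were called, 19.6% lower and 16.9% higher. In strong shade 9 were lower and 1 higher in phyA, with 42% of all probe sets called, 20.3% lower and 21.7% higher. In WT strong shade 7 were lower and 1 higher, with 39.2% called, 21.2% lower and 18% higher. The 1 higher gene was HEMA2 in both genotypes. Without the third phyA arrays the counts were 8 lower and 0 higher in phyA shade, 8 and 3 in phyA strong shade, 8 and 1 in WT shade, and 9 and 2 in WT strong shade. Of all probe sets, 40.3%, 45%, 40.2% and 42.5% were called in these comparisons under that setting, in the same order. The median log2 difference over the 14 genes was -0.82 in phyA shade, -0.97 in phyA strong shade, -0.68 in WT shade and -0.50 in WT strong shade, beside 0.03, 0.04, -0.02 and -0.0035 over all probe sets in the same order.

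At the start of the pathway GSA1, which encodes the glutamate-1-semialdehyde aminotransferase that acts directly after glutamyl-tRNA reductase, was lower in every LED group. GSA1 spanned 6.58 to 6.83 in phyA strong shade and 6.61 to 7.01 in phyA shade, against 8.46 to 8.50 in phyA white light. In WT it spanned 6.65 to 6.82 in strong shade and 6.87 to 7.06 in shade, against 8.55 to 8.75 in white light. GSA1 differed from white light by -1.67 in phyA shade (limma adjusted p = 5.57e-08) and by -1.69 in WT shade (limma adjusted p = 8.16e-08). In this way GSA1 and HEMA2, which act in consecutive steps, moved in opposite directions in WT strong shade, at -1.92 and 1.10. HEMA3, a further glutamyl-tRNA reductase gene, was dim, with group means of 2.13 to 2.23, and was called in no comparison.

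Of the 5 measured trunk genes, HEMB1, HEME1 and HEME2 were lower in both shades in both genotypes. HEMB1, the aminolevulinate dehydratase gene, stood at log2 differences of -1.56 in phyA shade and -1.65 in phyA strong shade, and of -1.28 in WT shade and -1.40 in WT strong shade. HEME1 and HEME2 encode uroporphyrinogen III decarboxylases. HEME2 stood at -2.32 in phyA shade and -2.33 in phyA strong shade, and at -1.93 in WT shade and -1.91 in WT strong shade. HEME1 stood at -2.28 and -2.34 in the same phyA comparisons and at -1.86 and -1.67 in the WT ones. Their calls, and those of GSA1, held under every alternative and without any single array, with adjusted p no higher than 0.000137. HEMB2 and HEMF2, annotated as further copies of trunk enzymes, were dim, with group means between 2.31 and 2.89, and were not called against white light with all arrays; HEMF2 was called in phyA strong shade without the third phyA arrays, at 0.74 (limma adjusted p = 0.0165).

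**Figure D3:**
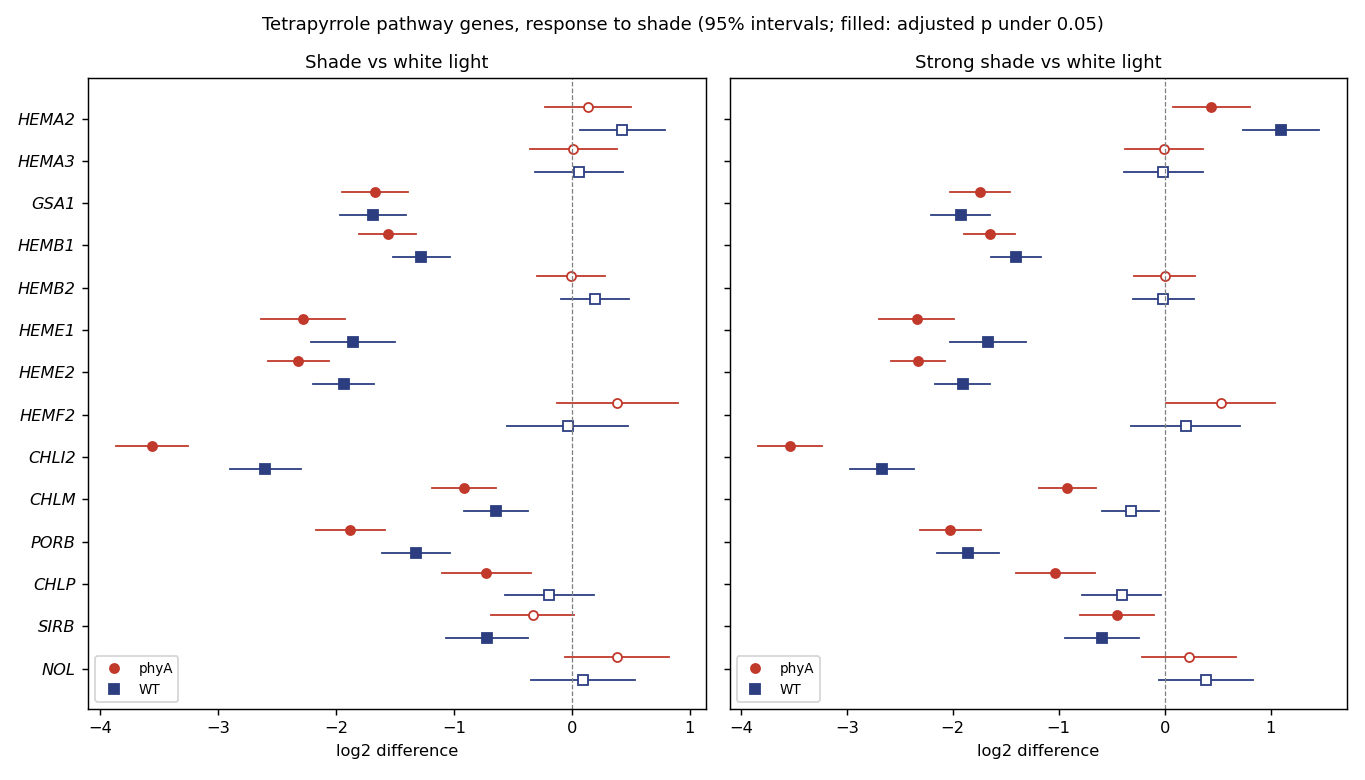
Log2 differences (horizontal axes) of the 14 measured tetrapyrrole pathway genes (rows, in pathway order) in shade and in strong shade against white light, for phyA (red circles) and WT (blue squares), with 95% intervals. Filled marks passed a limma adjusted p of 0.05; CHLI2 shows the lowest value in each panel, and with all 16 arrays HEMA2 is the only gene with a filled mark right of 0.

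In the chlorophyll branch CHLI2 had the largest decrease of the 14 genes in all 4 comparisons with white light, and PORB was followed by smaller differences in CHLM and CHLP. CHLM encodes the methyltransferase that acts on the product of magnesium chelatase. CHLM fell in phyA shade (-0.91), phyA strong shade (-0.92) and WT shade (-0.65), and stood at -0.32 in WT strong shade (limma adjusted p = 0.0589). CHLP, the geranylgeranyl reductase gene that supplies the chlorophyll tail, fell in phyA shade (-0.73) and phyA strong shade (-1.03). In WT it stood at -0.19 in shade (limma adjusted p = 0.472) and -0.41 in strong shade (limma adjusted p = 0.0847). Outside the branch, SIRB of siroheme synthesis fell in WT shade (-0.72) and WT strong shade (-0.59), calls that ended without WT white array 1 (adjusted p = 0.056 and 0.137). SIRB was also lower in phyA strong shade (-0.45), a call that ended under 7 of the 23 alternative settings, the third phyA arrays and both phyA white-light arrays among them (adjusted p up to 0.146). NOL, a chlorophyll b reductase gene of chlorophyll turnover, was called in no comparison with all arrays. Without the third phyA arrays NOL was called in phyA strong shade (0.48; limma adjusted p = 0.0186) and WT strong shade (0.39; limma adjusted p = 0.0367), each against white light.

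Between genotypes, calls in the pathway were all on the lower side in phyA. In shade limma called 4 of the 14 genes lower and 0 higher, where 4.77% of all probe sets were called, 3.59% lower and 1.19% higher. Besides CHLI2 and PORB these were HEME2 at -0.44 (limma adjusted p = 0.028) and CHLP at -0.60 (limma adjusted p = 0.0405). The count was 3 without the third phyA arrays, where 5.51% of all probe sets were called. It was as low as 1, CHLI2, with single arrays left out, where 3.11% to 6.37% were called. The HEME2 call ended without WT shade array 1 or 2 or phyA shade array 1 or 2, with median centring, and with only the groups compared (adjusted p up to 0.112). The CHLP call ended under 15 of the 23 settings (adjusted p up to 0.176).

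In strong shade 6 of the 14 were lower and 0 higher in phyA, where 11.7% of all probe sets were called, 6.26% lower and 5.43% higher. These were CHLI2, HEMA2, HEME1 at -0.73 (limma adjusted p = 0.00355), HEME2 at -0.47 (limma adjusted p = 0.0085), CHLM at -0.67 (limma adjusted p = 0.000828) and CHLP at -0.69 (limma adjusted p = 0.00875). The count was 5 without the third phyA arrays, where 12.8% of all probe sets were called. HEME1, HEME2, CHLM and CHLP kept their calls under all 23 alternative settings, with adjusted p no higher than 0.0434. In white light 0 of 14 were called by limma and 0 had an unadjusted p under 0.05. Of all probe sets, 0.154% were called there and 6.77% had an unadjusted p under 0.05. GSA1, which fell in all 4 comparisons with white light, stood at -0.16 ± 0.118 in phyA against WT in shade and at 0.01 ± 0.118 in strong shade, neither called. The median over the 14 genes was -0.25 in shade and -0.22 in strong shade, beside 0.01 and 0.02 over all probe sets.

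**Figure D4:**
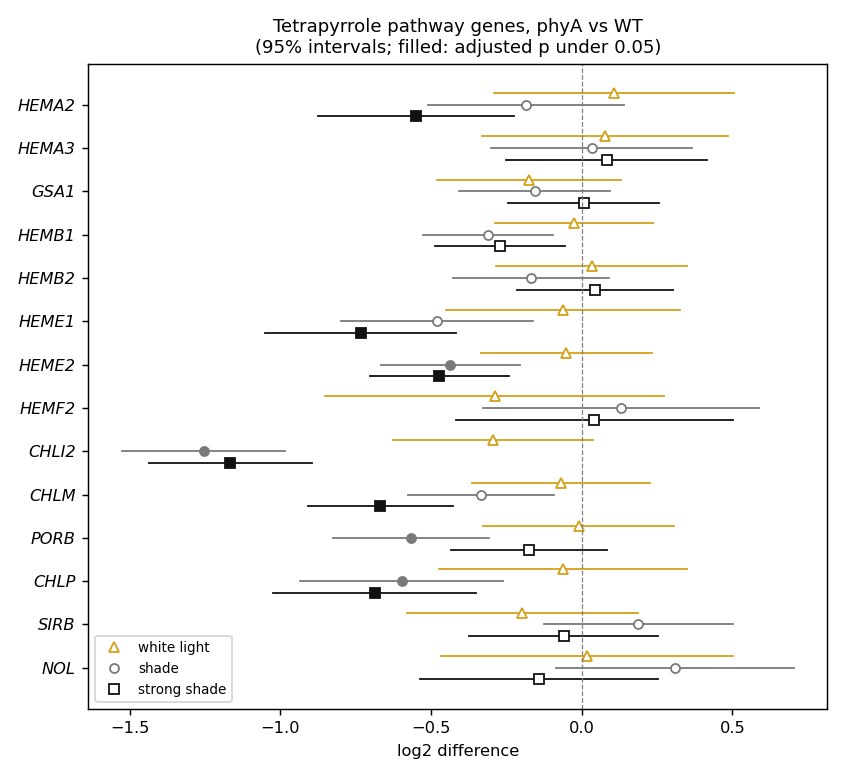
Log2 differences of phyA from WT (horizontal axis) for the 14 measured tetrapyrrole pathway genes (rows) in white light (triangles), shade (circles) and strong shade (squares), with 95% intervals. Filled marks passed a limma adjusted p of 0.05; none is filled in white light, and every filled mark lies left of 0, furthest for CHLI2.

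Marker levels moved in the same comparisons. The summed intensity of the 5 green tissue markers (RCA, LHCB4.1, LHCB4.3, PSAN and PSAE-1) was 5858 to 6361 in phyA strong shade against 9882 to 11198 in WT strong shade. It was 6708 to 7410 in phyA shade against 10203 to 10394 in WT shade, and 12208 to 13231 in phyA white light against 13286 to 13369 in WT white light. Limma called 3 of the 5 lower in phyA than in WT in shade, 4 of the 5 in strong shade and 0 in white light, beside 3.59% and 6.26% of all probe sets called lower in the shades and 0.154% called in white light. LHCB4.3 went the other way in white light, at 1.03 in phyA against WT (limma adjusted p = 0.109), where the median over the 5 markers was -0.06. LHCB4.3 adds little to the sum, with 71.5 to 93.1 in phyA white light and 31.9 to 49.7 in WT white light. The marker sums were thus ordered like CHLI2 over genotypes in the LED lights, and their part in the CHLI2 difference was not tested. The summed intensity of the 3 root markers (EXPA7, EXPA18 and PYK10) was 1151 to 1349 in WT strong shade against 2169 to 2497 in WT white light. HEMA2 was higher in WT strong shade, and a part of root tissue in that difference was not tested. The root marker sum is nearly all PYK10, which gave 1135 to 1330 in WT strong shade. EXPA7 gave 8.29 to 12.4 there and EXPA18 6.75 to 7.96. In phyA strong shade the root marker sum was 779 to 1775, against 2455 to 2523 in phyA white light; without the third phyA strong shade array, which gave the highest value, it was 779 to 822. HYH, a light-signalling bZIP factor gene and the only one of 11 listed regulators with a usable probe set, was also lower in phyA than in WT, at -0.82 on the log2 scale in shade (limma adjusted p = 0.000613) and -1.66 in strong shade (limma adjusted p = 2.21e-07).

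The genes whose levels over the 16 arrays were most like each member were taken from 13355 others by Pearson's r, as a description. The levels of CHLI2 and PORB differed between white-light and LED arrays, and r over 16 arrays takes in that split. For CHLI2 these were AT3G08920, AT2G32500, AGL87, AT1G21500 and AT2G34620, with r from 0.991 to 0.993, and r from 0.955 to 0.967 over the 12 LED arrays. For PORB they were AT1G23205, AT4G37080, scpl46, AT5G01015 and UPP, with r from 0.978 to 0.985, and from 0.765 to 0.897 over the LED arrays. For HEMA2 they were AT5G14120, AT2G35170, AT1G52200, SWEET2 and BIK1, with r from 0.899 to 0.938, and from 0.857 to 0.911 over the LED arrays. With r above 0.95 there were 185 genes for CHLI2, 124 for PORB and 0 for HEMA2. CHLI2 also differed between genotypes in the LED lights, and its r over the 12 LED arrays takes in that difference.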

How the data were processed

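The authors made probe set intensity values by RMA with affy, per the submitters' processing notes, which carry no versions here. The deposited intensity values were linear. Their log2 was taken with no pseudocount and no added scaling. RMA can compress dim signals, so fold changes of low probe sets may be too small, which was not measured here. The number of arrays limits the precision. Genes were assigned from the platform annotation supplied with the data and, by gene ID, a TAIR10.1 gene table that served for naming. Of 22746 probe sets, 13513 had 1 gene listed (13436 matched), 503 several and 8730 none. For a gene with several probe sets the brightest by mean was used, and each of CHLI2, PORB and HEMA2 had 1. No sequences or coordinates are given.

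Groups came from the sample titles. With limma 3.58.1 in R 4.3.3, 1 mean per group was fitted over the 16 arrays (10 residual degrees of freedom) and moderated with eBayes for 12 comparisons. P-values were adjusted by Benjamini-Hochberg over all probe sets within each comparison. The members and gene lists were chosen with earlier results of these data known. By rule, every measured list gene could be named, with the 5 genes most like each member by r. Alternatives were median centring, cyclic loess, removal of the dimmest 40% of probe sets, a trended robust variance, a model of the compared groups alone, a replicate block, removal of the third phyA arrays (known from earlier results to stand apart), and removal of each array. The procedure was tested on simulated data with independent noise, for phyA shade against WT shade only. That simulation did not check the differences of responses or an exchange of arrays.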

Additional observations from a re-analysis of the deposited data

Results flagged for a closer look

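The response of CHLI2 to the LED lights differed between genotypes by a test of the difference itself. The response in phyA minus that in WT was -0.96 on the log2 scale in shade (limma adjusted p = 0.0298) and -0.87 in strong shade (limma adjusted p = 0.0227). In phyA the differences from white light were -3.56 and -3.54, and in WT they were -2.60 and -2.66. Both tests share the white-light arrays, and white light held 2 arrays per genotype. The shade call was lost with the replicate block (limma adjusted p = 0.0637), with only the groups compared (0.0751) and without any one of 6 arrays (up to 0.187), and the strong shade call without any one of 5 arrays (up to 0.137).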

How the results depend on the processing

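The 36 member differences gave 828 values under the alternatives, of which 766 kept direction and side of the threshold, 37 lost a call, 16 gained one and 9 changed sign, all 9 at values near 0 that were never called. The 12 pathway counts gave 276 values, of which 250 stayed within 1.5 times the count with all arrays. Where a value or call moved, the cause was not tested unless it lies in how the setting was built. HEMA2 in WT shade against white light was called at 0.50 with median centring and at 0.43 without the dimmest 40%, without the third phyA arrays and with only the groups compared, and ranged from 0.36 to 0.50 with single arrays left out. HEMA2 in phyA strong shade against white light lost its call at 0.35 with cyclic loess, 0.44 with trended and robust variance and with only the groups compared, and 0.44 with the replicate block, and ranged from 0.33 to 0.62 with single arrays left out. In WT strong shade against WT shade, PORB was called at -0.54 with trended and robust variance and without the third phyA arrays, and HEMA2 at 0.67 without the third phyA arrays and with only the groups compared, so that 1, 2 and 1 of 14 pathway genes were called with these settings in turn, beside 0.708%, 6.25% and 3.73% of all probe sets, against 0.659% with all arrays. With single arrays left out PORB ranged from -0.66 to -0.44, HEMA2 from 0.57 to 0.74 and CHLI2 from -0.18 to 0.0303. The count was then 0 to 2, beside 0.136% to 2.77% of all probe sets. In phyA strong shade against phyA shade without the third arrays, HEMA2 was called at 0.56, CHLI2 stood at -0.042 and the count was 2, beside 3.84% of all probe sets, and CHLI2 ranged from -0.0719 to 0.0741 with single arrays left out.

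Between genotypes, PORB in white light stood at 0.013 with median centring, ranging from -0.0712 to 0.0511 with single arrays left out. In shade PORB lost its call at -0.57 with only the groups compared, where the count was 1 and 3.38% of all probe sets were called. With single arrays left out PORB ranged from -0.69 to -0.47. The count was then 1 to 4, beside 3.11% to 6.37% of all probe sets. In strong shade HEMA2 lost its call at -0.37 without the third phyA arrays and at -0.55 with only the groups compared, ranging from -0.66 to -0.37 with single arrays left out. For the difference of responses in shade, CHLI2 lost its call at -0.96 with the replicate block (limma adjusted p = 0.0637) and with only the groups compared (0.0751). That left 0 pathway genes in each, beside 0.813% and 0.914% of all probe sets called. With single arrays left out CHLI2 ranged from -1.10 to -0.82. The counts were then 0 to 1, beside 0.479% to 1.44% of all probe sets. In strong shade the count was 2 with trended and robust variance and without the third phyA arrays, beside 3.89% and 5.43% of all probe sets. With single arrays left out the count was 0 to 1, beside 2.04% to 4.19% of all probe sets. CHLI2 then ranged from -1.01 to -0.73. For the difference in the step between the shades CHLI2 ranged from -0.00868 to 0.20 with single arrays left out.

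Replicate numbers did not pair the samples over all groups: deviations of same-numbered arrays correlated between -0.58 and 0.32, above 0.1 in 7 of 36 pairs, and 2 of 12 LED arrays correlated best with their own number. The lowest value was between the third phyA shade and phyA strong shade arrays. Between WT and phyA, arrays 1, 2 and 3 gave 0.00140, 0.245 and 0.101 in shade. In strong shade they gave -0.0458, 0.318 and 0.157. A pairing of the genotypes within a light was not tested further. Median centring moved the median of all probe sets to 0.13 in WT strong shade and phyA shade and to 0.14 in phyA strong shade, each against white light. It also moved the share of calls that were higher from 45.9% to 57.3% in WT strong shade, from 40.7% to 51.2% in WT strong shade against WT shade, and from 24.9% to 36.1% in phyA against WT in shade. The low signal of HEMA3, HEMB2 and HEMF2, which the filter on dim probe sets removed, limits what their differences can show.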
